A study of Mus musculus with 2 samples.

Results

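Neutrophils of a mouse ovarian tumor are described here, 101 cells of 1 single-cell RNA sequencing library. They were taken from the KPCA.FSTKO library by their own counts. Barcodes with under 20% mitochondrial UMIs and between 200 and 8000 genes were kept. The members were chosen by the levels of S100a8, S100a9, Csf3r, Cxcr2, Retnlg, G0s2 and the C1q genes, so these levels are no finding: a cell was a neutrophil where S100a8 and S100a9 together made up at least 1% of its UMIs, where Csf3r, Cxcr2, Retnlg and G0s2 gave at least 1 UMI between them, and where C1qa, C1qb and C1qc gave under 5 UMIs. A UMI, a unique molecular identifier, stands for 1 captured RNA molecule. The rule took 101 of 6777 cells, a share of 1.49% (exact Clopper-Pearson 95% interval, 1.22 to 1.81%, which covers counting error only). In the other library of the study, KPCA.FSTKO_hFSTL3, the same rule took 0 of 4041 cells, which allows a share of up to 0.0742%, so that the 101 cells are all of the neutrophils by this rule among 10818 cells.

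The study asked what FSTL3, a relative of follistatin, does in high-grade serous ovarian cancer and whether it acts on the immune cells of the tumor. KPCA is a mouse line of fallopian tube epithelial cells with mutant Trp53 and with Ccne1 and Akt2 overexpressed. In both groups the cancer cells carried a knockout of Fst, the gene of follistatin. KPCA.FSTKO (KPCA_FSTKO in the labels) carried that knockout alone, and KPCA.FSTKO_hFSTL3 (KPCA_FSTKO_hFSTL3 in the labels) in addition expressed human FSTL3, a follistatin-like activin antagonist, from a plasmid in 1 stable clone selected with geneticin. Cells were grafted into the peritoneum of female C57BL/6J mice aged 12 to 16 weeks, and tumors grown in the omentum were taken on day 10. For each genotype 4 tumors were pooled, and each genotype gave 1 library. Cells of 1 library are not replicates, so no test was made: counting intervals and a fixed rule of size take its place, and a difference between the 2 libraries cannot be told apart from a difference between those 2 pools.

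Neutrophils are short-lived granulocytes that leave the bone marrow in large numbers and enter inflamed tissue along gradients of chemokines, formyl peptides and complement fragments. As they mature they fill granules in sequence: primary granules with myeloperoxidase and elastase, then secondary granules with lactoferrin and lipocalin 2, then tertiary granules with gelatinase. The mature cell carries little RNA, most of the granule transcripts have been shut off, and S100A8 and S100A9, which pair as calprotectin and bind calcium and zinc, are among its most abundant cytosolic proteins. In tumors neutrophils are known both for inflammatory output, such as interleukin 1 and chemokines that attract more neutrophils, and for products that restrain T cells, such as arginase and prostaglandin E2.

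The loci of the leading genes are given first, on mouse build GRCm38.p6 with RefSeq positions. S100a8 lies on the plus strand at chr3:90669071-90670034 and S100a9 on the minus strand at chr3:90692630-90695721, 22595 bases apart. Il1b, the gene of interleukin 1 beta, lies on the minus strand at chr2:129364569-129371164, and Cxcl2, a chemokine ligand of CXCR2, on the plus strand at chr5:90903899-90905938. The 200 bases before the start of these 4 genes in the RefSeq promoter table are shown, because S100a8 and S100a9 chose the cells and Cxcl2 and Il1b had the highest levels of the chemokine and cytokine lists, and each is printed 5′ to 3′ on the strand of its gene. The table's start of Il1b lies inside the gene span given above, so that 25 bases of its window fall within that span. Capitals mark the letters that matched a searched motif.
S100a8, chr3:90668871-90669070, plus strand: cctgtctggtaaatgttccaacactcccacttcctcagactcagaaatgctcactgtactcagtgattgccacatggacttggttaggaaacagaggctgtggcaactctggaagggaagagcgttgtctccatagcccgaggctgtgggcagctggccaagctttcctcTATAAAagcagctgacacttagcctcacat
S100a9, chr3:90695722-90695921, minus strand: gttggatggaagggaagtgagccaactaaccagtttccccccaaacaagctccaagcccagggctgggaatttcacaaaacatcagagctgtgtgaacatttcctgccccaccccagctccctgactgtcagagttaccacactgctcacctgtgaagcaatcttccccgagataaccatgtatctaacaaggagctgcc
Il1b, chr2:129371140-129371339, minus strand: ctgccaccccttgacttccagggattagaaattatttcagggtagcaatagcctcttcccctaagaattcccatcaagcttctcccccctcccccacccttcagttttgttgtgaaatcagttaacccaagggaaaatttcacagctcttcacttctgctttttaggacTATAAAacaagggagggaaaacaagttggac
Cxcl2, chr5:90903699-90903898, plus strand: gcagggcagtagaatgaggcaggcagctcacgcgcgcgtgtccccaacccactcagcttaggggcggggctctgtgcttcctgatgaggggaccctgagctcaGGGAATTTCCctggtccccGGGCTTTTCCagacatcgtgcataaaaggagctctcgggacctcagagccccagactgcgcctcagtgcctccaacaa

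A TATA box, searched as TATAAA, was found 30 to 25 bases before the start of S100a8 and 31 to 26 bases before the table's start of Il1b. An NF-kappaB motif, searched as GGG, any 2 bases, TT, any base and CC, was found in the Cxcl2 window in 2 copies, GGGAATTTCC at 97 to 88 bases and GGGCTTTTCC at 78 to 69 bases before the start. The C/EBP motif TTGCNNAA and the AP-1 motif TGANTCA were found in 0 of the 4 windows. Both strands were searched, and none of the matches overlapped. Of 32851 such windows in the RefSeq table, 9.96% held the TATA letters, 3.39% the NF-kappaB letters, 7.47% the C/EBP letters and 5.48% the AP-1 letters. A match describes the letters and is not evidence of binding.

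The libraries differed in depth and in mitochondrial RNA, and S100a8 and S100a9 were spread over their cells in different ways. KPCA.FSTKO held 142160061 UMIs in its 6777 cells, with a median of 17253 per cell and a median mitochondrial share of 3.54%. KPCA.FSTKO_hFSTL3 held 69751304 UMIs in 4041 cells, with medians of 15071 UMIs and 10.7%. The total level of the pair was not lower in KPCA.FSTKO_hFSTL3: S100a8 stood at 81.2 UMIs per 1000000 (CPM, the unit of all levels below) there and at 57.8 CPM in KPCA.FSTKO, and S100a9 at 86.3 and 68.5 CPM. In KPCA.FSTKO these UMIs were concentrated, since the 101 cells with most S100a9 held 94.5% of it and 4.65% of cells had any. In KPCA.FSTKO_hFSTL3 they were thin and wide, since 52.4% of cells had an S100a9 UMI, the highest cell had 24 and the top 101 cells held 15.1%. The highest combined share in any cell of that library was 0.478%.

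The wide signal in KPCA.FSTKO_hFSTL3 moved with the mitochondrial share of the cell. Among its 909 cells under 6% mitochondrial UMIs the pair stood at 12.3 CPM and 11.0% of cells had a UMI, at a median depth of 6234 UMIs. In the cells of KPCA.FSTKO in that range that were not neutrophils the values were 25.4 CPM and 10.8%, at a median depth of 20462 UMIs. In KPCA.FSTKO_hFSTL3 from 6 to 10% the values were 148 CPM and 54.7% of 834 cells, and from 10 to 20% they were 232 CPM and 85.6% of 2298 cells. In those 2 ranges 36.8% and 39.6% of cells held UMIs of keratin, collagen and Ptprc genes together, against 7.70% under 6%, and the median depth was 13969.5 and 16378 UMIs in them against 6234. In the 132 macrophages of that library S100a9 had 0 UMIs and S100a8 had 64, a level of 25.1 CPM. Under 6% mitochondrial UMIs, 98 of 5594 cells of KPCA.FSTKO (1.75%) and 0 of 909 of KPCA.FSTKO_hFSTL3 were neutrophils, and a count of 0 in 909 allows up to 0.330%. The 3 ranges were chosen after the values were seen, and the part of cell quality in the difference between the libraries was not tested.

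**Figure D1:**
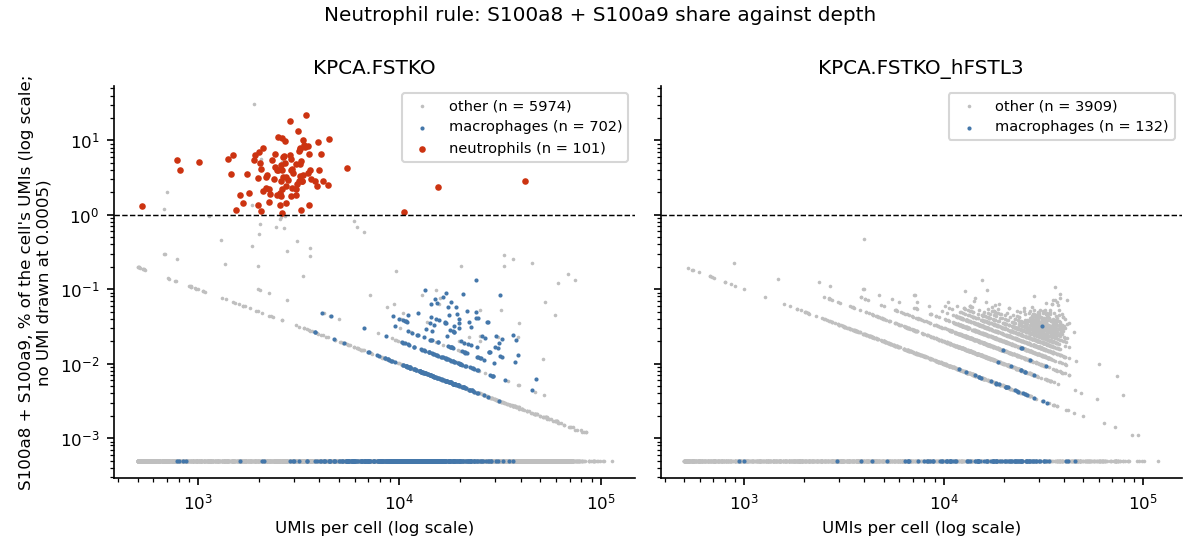
Share of UMIs from S100a8 and S100a9 in each cell against the UMIs of that cell, for KPCA.FSTKO on the left and KPCA.FSTKO_hFSTL3 on the right, on log axes, with the 1% limit of the rule and cells without a UMI at the foot. The 101 neutrophils of KPCA.FSTKO lie between 1.07 and 22.2% and most hold fewer UMIs than other cells, while no cell of KPCA.FSTKO_hFSTL3 passes 0.478%.

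The neutrophils were small cells in RNA terms. They held a median of 2701 UMIs (529 to 42054) from a median of 1200 genes, while the 702 macrophages of the library, cells with C1q genes at 0.2% of UMIs or more, at least 1 Csf1r UMI and Krt8 and Krt18 under 0.05%, had a median of 13542 UMIs and the 2036 cancer cells one of 31788. Their median mitochondrial share was 0.936% and their median share of ribosomal protein genes 6.02%. They made up 1.49% of cells and 0.235% of UMIs, 334374 in all. S100a8 and S100a9 together took a median of 3.54% of a cell's UMIs.

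The limits of the rule cut through a tail of cells. The members nearest to the 1% limit had shares of 1.07, 1.09 and 1.12%, and the nearest cells outside it 0.976, 0.963 and 0.934%. Between 1 and 2% lay 21 of the 101 members, and 9 cells that met the other conditions lay between 0.5 and 1%. Of the members, 7 had a lone UMI of the 4 genes Csf3r, Cxcr2, Retnlg and G0s2, and 27 had 1 to 4 C1q UMIs. A further 6 cells passed 1% but had none of the 4 genes, with shares of 30.9, 5.69, 5.19, 2.01, 1.35 and 1.19%. The cell at 5.19% held 45 Il1b, 73 Cxcl2 and 34 Hdc UMIs.

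Of the 101 barcodes, 3 held over 10000 UMIs, at 42054, 15486 and 10490, while the next held 5517. The deepest held 209 Retnlg UMIs together with 22 of Krt8 and 17 of Krt18, keratins of the cancer cells. The next held 158 Col3a1 and 101 Dcn UMIs, both fibroblast genes, and the third had a mitochondrial share of 15.2%. Together they gave 20.3% of the neutrophil UMIs. Values below are over all 101 cells, and a value over the other 98 is given where a result turns on those 3.

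UMIs of other cells were present in the neutrophil barcodes. In the 98 cells Krt7, Krt8, Krt18 and Krt19 stood at 36.0, 32.9, 22.9 and 19.6% of their level over the whole library. If all Krt8 and Krt18 UMIs of the 101 cells had come with RNA in the average mix of the library, that mix would make up 31.1% of the neutrophil UMIs, against 4.17% in macrophages. Of 9 cancer cell markers 7 were higher in neutrophils than in macrophages, at 242 against 31.6 CPM for Krt8, though the macrophages had been chosen with few keratin UMIs. The cancer cell level is given below beside some of the genes. Markers of lymphocytes and other granulocytes were almost absent: the lists of dendritic cell, T and NK, B cell, and eosinophil and mast cell markers gave 2 to 3 UMIs each over the 101 cells. Epx and Prg2, which define eosinophils, and Mcpt8, which marks basophils, had 0 UMIs, a level of up to 8.97 CPM. Epx had 0 UMIs in the cells of both libraries and Prg2 had 7 in KPCA.FSTKO, so their absence says little about the neutrophils. Of the other lists, fibroblast markers were higher than in macrophages in 4 of 4 genes compared, with a summed level of 1436 CPM in the 101 cells, 413 CPM in the 98 and 144 in macrophages. Pancreatic acinar markers, from tissue beside the omentum, were higher in 4 of 6, at 230.3 against 95.03 CPM in sum. Of 4 erythroid markers 2 were lower and 0 higher, and the endothelial marker compared, Pecam1, was lower with 2 UMIs. Its log2 ratio was -1.47, and -0.58 in the neutrophils with an S100 share of 5% or more, inside the ratio. The part of free RNA in these levels was not tested gene by gene.

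The label was checked on 20 neutrophil markers outside the rule, all of which had at least 1 UMI. Sums over the neutrophils were compared with sums over the macrophages of the same library: a gene was compared where the 2 sums held at least 50 UMIs between them, and it was called higher or lower at a CPM ratio of at least 2. UMIs here count the 3′ ends of molecules, so levels of different genes were not scaled by length. Of 9692 genes compared, 15.4% were higher and 22.6% lower in neutrophils, with a median log2 ratio of -0.20. The neutrophil sum is far smaller than that of the macrophages, 334374 against 10112998 UMIs, so a gene at a low level passes the minimum more easily through macrophages, and the genes compared do not stand for all genes.

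Of the 17 markers compared 16 were higher in neutrophils and 0 lower, with a median log2 ratio of 4.32. Hdc and Stfa2l1, with 12 and 0 UMIs in macrophages, reached the minimum through the neutrophils alone, so they could only be called higher. Il1r2, the decoy receptor that traps interleukin 1, stood at 3012 CPM (2828 to 3204) in neutrophils against 64.0 in macrophages, a log2 ratio of 5.56. Hdc, the enzyme that makes histamine, stood at 2147 against 1.19 CPM (10.82). Acod1, which makes itaconate, stood at 1666 against 5.24 CPM (8.31). These 3 genes were found in 89, 78 and 59 of the 101 cells.

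Stfa2l1, a stefin A gene, stood at 924 CPM in neutrophils and had 0 UMIs in macrophages. Clec4e and Clec4d, lectin receptors for microbial and dead-cell ligands, stood at 1480.4 and 1083 CPM against 69.6 and 199. Trem1, an amplifier of inflammatory signals, stood at 613 against 96.3 CPM, and Mxd1, a MYC antagonist of maturing granulocytes, at 1292 against 88.5. Msrb1, a methionine sulfoxide reductase, was the marker compared that missed the ratio of 2, at 745 against 401 CPM. Ly6g, the surface protein most used to sort mouse neutrophils, gave 15 UMIs in 10 cells and 0 in macrophages, and Cxcr1 gave 4 UMIs.

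The genes of the rule are described without comparison, since they chose the cells. S100a9 stood at 25235 CPM and S100a8 at 18273. Retnlg, a resistin-like secreted protein, stood at 3899.8, G0s2, an inhibitor of lipolysis, at 2805, Csf3r, the receptor of granulocyte colony-stimulating factor, at 987 and Cxcr2, the receptor of Cxcl2 and its relatives, at 446 CPM. All 101 cells had UMIs of both S100 genes, though the rule set a minimum only on their sum. Csf3r was found in 87 cells, G0s2 in 64, Cxcr2 in 59 and Retnlg in 55.

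Outside the rule, the most abundant genes were Fth1, the ferritin heavy chain, at 25525 CPM against 15230.3 in macrophages, and Malat1, a nuclear RNA, at 17208 against 7693. Cxcl2 followed at 17092 CPM, Gm42418, a predicted gene, at 13075 against 11303 in macrophages, Srgn, the proteoglycan core of granules, at 9782 and Il1b at 7632. The largest ratios to macrophages outside the rule and the marker list were those of Asprv1, a protease, at 446 against 0 CPM, Il1f9, an interleukin 1 family cytokine, at 266 against 0, Rdh12, a retinol dehydrogenase, at 206 against 0, and Cstdc4, a cystatin domain gene, at 1418 against 2.08. Asprv1, Il1f9, Rdh12 and Cstdc4 reached the minimum of UMIs through the neutrophils alone, so they could only be called higher. The ratios of Asprv1, Il1f9 and Rdh12 also rest on a floor set in place of 0 macrophage UMIs. Stefin and cystatin genes such as Stfa2l1 and Cstdc4 have close copies, so how reads were divided among copies is uncertain.

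Granule genes went both ways. Of the primary granule list 1 gene was compared and was lower than in macrophages, of the secondary list 2 were compared and 1 was higher, and of the tertiary and secretory vesicle list 7 were compared, of which 3 were higher and 1 lower. Of 6 primary granule genes, Mpo (myeloperoxidase), Elane (neutrophil elastase), Ctsg (cathepsin G) and Ms4a3 had 0 UMIs in 334374, and Fcnb had 1. All cells of KPCA.FSTKO held 25 UMIs of Mpo, 2 of Elane, 3 of Ctsg, 1 of Ms4a3 and 2 of Fcnb. These counts thus say little about the neutrophils. Prtn3 (proteinase 3) was the primary granule gene compared, at 14.95 CPM against 116 in macrophages. Of the secondary granule genes Lcn2, lipocalin 2, which binds bacterial siderophores, stood at 1217 against 9.69 CPM and was found in 73 cells. Ltf (lactoferrin), Camp (cathelicidin) and Ngp gave 5, 2 and 20 UMIs. In the tertiary and secretory vesicle list Mmp9 (gelatinase B) stood at 305 against 13.3 CPM. Mmp8 (collagenase), counted in that list here though more often placed with secondary granules, stood at 212 against 26.8. Chil3 stood at 1681 CPM, below the 2920.4 of macrophages. Of 8 proliferation genes, 0 were higher than in macrophages and 2 were lower, with 3 UMIs of Mki67.

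Most of the cytokine genes compared were higher in neutrophils. Of 17 cytokine and prostanoid genes listed, 13 were compared, 10 were higher in neutrophils and 1 was lower, with a median log2 ratio of 3.67 against -0.20 over all genes. Il1b, the main pyrogenic cytokine, stood at 7632 CPM (7339 to 7934), against 113 in macrophages and 0.864 in cancer cells, a log2 ratio to macrophages of 6.08 (5.98 to 6.18). It was found in 85 of 101 cells. Cut to 500 UMIs a cell, 72.3% of neutrophils still had an Il1b UMI against 3.99% of macrophages and 0.149% of cancer cells, which should lack it.

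Other members of the interleukin 1 system were high as well. Il1rap, the receptor accessory chain, stood at 748 against 19.3 CPM, and Il1rn, the receptor antagonist, at 263 against 45.7. Il1a, the other agonist, stood at 111 against 66.9 CPM in 10 cells and missed the ratio. So the agonist Il1b and 2 antagonists, Il1r2 and Il1rn, were all higher in the same class.

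Ptgs2 (cyclooxygenase 2), which starts prostaglandin synthesis, stood at 1086 against 66.1 CPM, while Ptges, which completes prostaglandin E2, gave 2 UMIs. Tnf stood at 203 against 16.02 CPM in 17 cells, Osm (oncostatin M) at 571 against 180.0, and Csf1, the macrophage growth factor, at 281 against 12.1 with 24.3 in cancer cells. Il6 was the lower member, with 2 UMIs (log2 -2.22, and -0.87 with every cell given equal weight). Il10 had 0 UMIs, and Il12b had 0 in the cells of both libraries.

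Chemokine ligands went both ways. Of 12 compared, 5 were higher in neutrophils and 7 lower, with a median log2 ratio of -1.87. Cxcl2, which attracts neutrophils through CXCR2, stood at 17092 CPM (16651 to 17541) against 808 in macrophages (4.40) and 92.4 in cancer cells, and was found in 93 of 101 cells. Cxcl3, of the same family, stood at 1926 against 27.1 CPM. Ccl3, a ligand of CCR1, and Ccl4, a related chemokine of macrophages and lymphocytes, stood at 1929 and 739 against 60.9 and 87.8 CPM. The fifth, Cxcl10, rested on few cells and is given with the interferon genes.

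The lower members included ligands of monocytes. Ccl2 and Ccl7, ligands of CCR2, stood at 35.9 and 5.98 CPM against 365 and 125. Ccl9 stood at 20.9 against 1135 CPM and Ccl6 at 1220.2 against 4833. Cxcl16 had 3 UMIs and Ccl5 had 0. Cxcl1, another CXCR2 ligand, gave 2 UMIs, a level of 5.98 CPM against 20.1 in macrophages, and its ratio has a counting interval that includes 1.

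**Figure D2:**
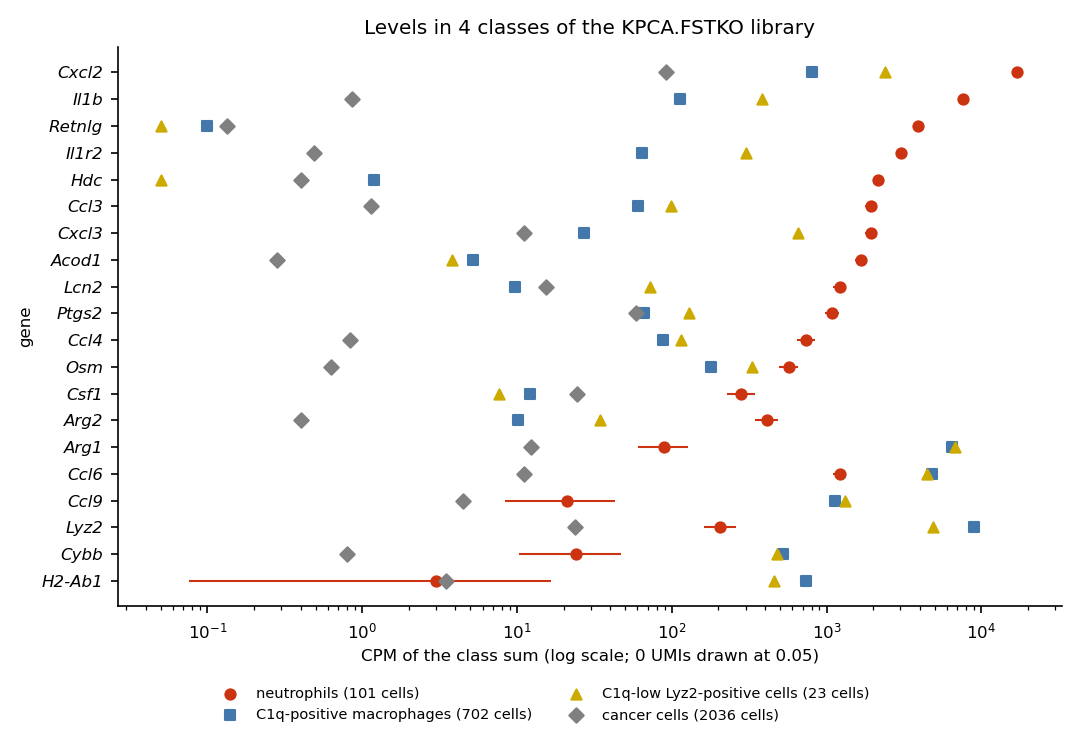
Levels of listed genes in CPM, on a log axis, in neutrophils, macrophages, C1q-low Lyz2-positive cells and cancer cells of KPCA.FSTKO, as sums over each class, with lines for the 95% Poisson interval of the neutrophils and 0 UMIs drawn at the left edge. Neutrophils lie far above the other classes for Il1b (7632 CPM) and far below macrophages for H2-Ab1 (2.99 against 734 CPM). Retnlg (3899.8 CPM) is drawn too, but it helped to choose the cells, so its difference between classes is not read.

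With 0.235% of the library's UMIs, the neutrophils held a large part of some transcripts. They gave 49.4% of all Il1b UMIs of KPCA.FSTKO (48.0 to 50.8%), 39.5% of Il1r2, 68.5% of Acod1 and 88.5% of Stfa2l1. Of the chemokines they held 30.6% of Ccl3, 24.8% of Cxcl3, 18.3% of Cxcl2 and 10.4% of Ccl4. They also held 35.7% of Arg2, 29.2% of Hdc, 17.2% of Tnf and 12.4% of Lcn2, but 4.02% of Ptgs2 and 0.043% of Spp1. The genes used by the rule reached 89.1% for Retnlg and 86.6% for S100a9, shares that are not read since these genes chose the cells. The rest of the Il1b, Ccl3 and Cxcl2 UMIs lay in cells outside the class. Macrophages held 1139 of the 5164 Il1b UMIs, 616 of 2109 of Ccl3 and 8172 of 31259 of Cxcl2. Cells of like profile under the 1% limit, described at the end, held 4.43, 6.50 and 3.20% of them.

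**Figure D3:**
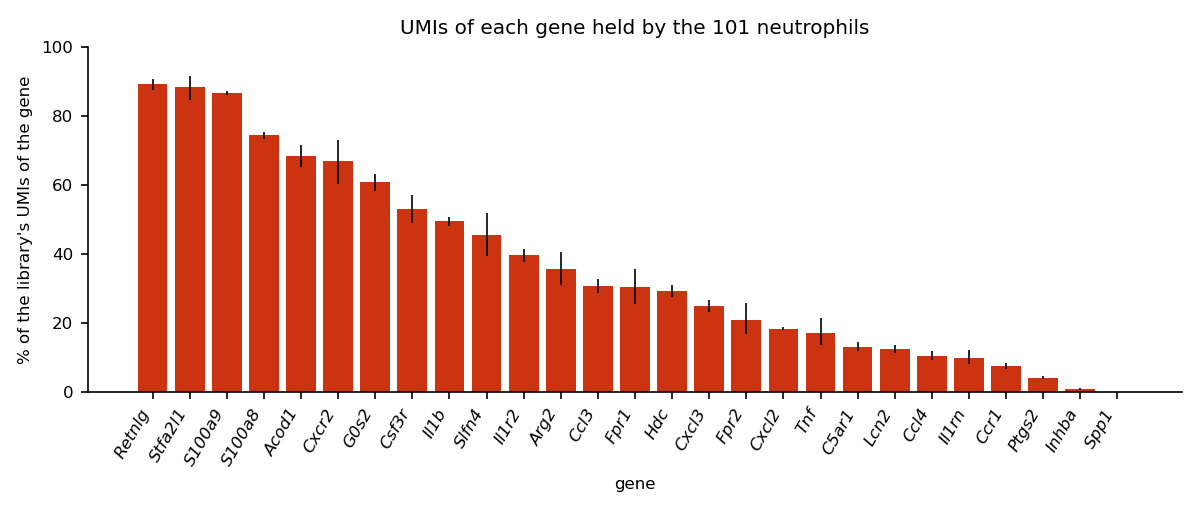
Share of all UMIs of a gene in the filtered KPCA.FSTKO library, in percent, that lay in the 101 neutrophils, with exact 95% binomial intervals for counting error. The neutrophils hold 0.235% of all UMIs and 49.4% of those of Il1b, and 0.043% of those of Spp1. Genes of the rule are drawn too, and their shares are not read.

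Receptors that guide neutrophils were higher in all cases compared. Of 10 chemotactic receptor genes 8 were compared and 8 were higher than in macrophages, with a median log2 ratio of 2.38. C5ar1, the receptor of complement C5a, stood at 1116 against 191 CPM, and Ccr1, which binds Ccl3, at 912 against 271. Fpr1 and Fpr2, the formyl peptide receptors, stood at 302 and 203 against 15.1 and 16.5 CPM. Ccrl2, a chemerin-binding receptor, stood at 499 against 107 CPM, and Ptafr, the receptor of platelet-activating factor, at 185 against 24.4. Cxcr4, which retains cells in marrow and marks aged neutrophils, stood at 92.7 against 43.7 CPM, a log2 ratio of 1.08 that was under 1 with TMM, a scaling on the trimmed mean of gene ratios.

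Adhesion genes divided. Selplg, the P-selectin ligand, stood at 233 against 94.3 CPM, and Cd44 at 1104 against 457. The integrin chains were not higher: Itgam (CD11b) stood at 595 against 795 CPM, and Itgb2, its partner, at 83.7 against 308. Of 9 genes compared 4 were higher and 3 lower.

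Among receptors for microbes and antibodies, 6 of 12 were higher and 2 lower. Tlr4 stood at 379.8 against 122 CPM and its coreceptor Cd14 at 1364 against 653 (log2 1.06, under 1 with TMM scaling). Nlrp3, the inflammasome sensor upstream of interleukin 1 beta release, stood at 473 against 90.7 CPM. The inhibitory receptor Fcgr2b was lower, at 102 against 716, and so was Fcgr4, an activating receptor of mouse neutrophils and macrophages, at 129 against 265 (log2 -1.04, inside the ratio in 6 of the 9 other settings tried). Fcgr3 did not pass the ratio, at 622 against 827 CPM.

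The oxidase that makes superoxide was uneven across its subunits. Cybb, the catalytic subunit gp91phox, was low, at 23.9 CPM from 8 UMIs in 3 cells against 524 in macrophages, and Cyba, its membrane partner, stood at 544 against 1230.1. The cytosolic subunits Ncf1 and Ncf4 stood at 272 and 129 CPM against 223 and 118, neither past the ratio. Rac2, the GTPase of the complex, stood at 281 against 134 (log2 1.07, under 1 with TMM scaling). Lyz2 (lysozyme M), often used to mark myeloid cells as a whole, stood at 206 CPM in 43 cells against 8941 in macrophages, a log2 ratio of -5.44.

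Antigen presentation genes separated class II from class I. H2-Aa, H2-Ab1 and H2-Eb1, chains of MHC class II, gave 1, 1 and 2 UMIs against 803, 734 and 634 CPM in macrophages, and Cd74, the invariant chain, stood at 35.9 against 2590.3 CPM. Of 5 class II genes 4 were lower. Of 5 class I genes 0 passed the ratio in either direction, with B2m at 834 against 1432 CPM and H2-D1 at 828 against 1033. The 9 macrophage markers were all compared and all lower, with a median log2 ratio of -4.13, although Csf1r among them had helped to choose the macrophages. Of 6 monocyte markers compared 5 were lower, such as Ccr2 at 5.98 against 180.2 CPM, and 1 was higher, Plac8 at 296 against 12.5 (161 over the 98 cells). Apoe stood at 305 against 17051 CPM and Mrc1 (CD206) at 20.9 against 1582, while Aif1 and Ms4a7 had 0 UMIs.

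Genes named for suppression of T cells had no common direction. Of 12 compared, 4 were higher and 2 lower, with a median log2 ratio of -0.07. The arginases went apart: Arg2, the mitochondrial form, stood at 413 CPM against 10.2 in macrophages (5.34) and was found in 61 cells, while Arg1, the cytosolic form, stood at 89.7 against 6475 (-6.17) with at most 3 UMIs in a cell. Cd274 (PD-L1) stood at 377 against 195 CPM, a log2 ratio of 0.95 with a counting interval of 0.68 to 1.21, just under the ratio, and was found in 38 cells. Nos2, the inducible nitric oxide synthase, stood at 126 against 141. Olr1 (LOX-1) stood at 287 against 55.4 CPM and Tnfrsf23, a decoy receptor of TRAIL, at 251 against 25.6 with 76.4 in cancer cells. Slc27a2, a fatty acid transporter, had 0 UMIs in the cells of both libraries.

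Lists of a circulating and of a tumor state of neutrophils were both in part present. Of the circulating list 8 of 13 genes were compared, 4 were higher than in macrophages and 2 lower, with a median log2 ratio of 1.28. Of the tumor list 16 of 17 were compared, 8 were higher and 3 lower, with a median of 1.29. Mmp8, Mmp9 and Lcn2 were among the higher members of the one, and Ccl3, Ccl4, Cxcl3, Tnfrsf23, Xbp1, Il1rn, Ptgs2 and Tnf were those of the other. Siglecf, which marks long-lived neutrophils in some mouse tumors, gave 7 UMIs in 7 cells. Vegfa, the angiogenic factor, stood at 135 CPM, not past the ratio to the 173 of macrophages and under the 239.7 of cancer cells. Spp1 (osteopontin) stood at 1627 CPM, against 5923 in macrophages and 7223 in cancer cells, and at least 1 UMI was found in 98 cells. Without the barcodes over 10000 UMIs, Spp1 stood at 19.8% of its level over the whole library, 1765 against 8892 CPM. The keratins of the cancer cells lay between 19.6% (Krt19) and 36.0% (Krt7) in the same barcodes. So the count of cells with Spp1 is not read as expression by the neutrophils, and the part of free RNA in it was not tested.

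Interferon-stimulated genes were higher, but from few cells. Of 15 compared 12 were higher than in macrophages and 0 lower, with a median log2 ratio of 3.27. Ifitm1, an antiviral membrane protein also common in neutrophils, stood at 1848 CPM against 34.0 in macrophages and 379 in cancer cells, and was found in 78 cells. Slfn4 stood at 347 against 3.96 CPM in 32 cells. Most of the others came from a few cells: Cxcl10 gave 90 UMIs in 7 cells with 53 in 1 of them, Rsad2 (viperin) 64 in 12 cells with 30 in 1, and Isg15 43 in 11 cells. Ifit1 stood at 80.7 CPM over all cells and at 33.8 CPM over the 98, since 27 UMIs lay in 5 cells. Ifitm2 (log2 1.12) and Gbp2 (1.08) were under a log2 ratio of 1 with TMM scaling.

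Of 17 transcription factor genes compared 8 were higher than in macrophages and 2 lower. Cebpb, the C/EBP factor of mature and stressed granulocytes, stood at 3882 CPM against 1259.7 (1.62), Junb, an AP-1 subunit, at 3765 against 1009.7, and Egr1 at 1564 against 132 with 395 in cancer cells. Nfkbia, the NF-kappaB inhibitor that the factor itself induces, stood at 1962 against 414 CPM and Nfkbiz at 1271 against 166. Cebpa, which drives early granulocyte commitment, had 0 UMIs against 70.0 CPM in macrophages. Irf8, which drives monocyte fate, had 0 against 172, and Gfi1, a factor of granulocyte precursors, also had 0. Spi1 (PU.1), shared by the myeloid lineages, stood at 311 against 237, within the ratio.

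Survival genes were higher in part. Mcl1, on which neutrophil survival depends, stood at 2201 against 817 CPM and was found in 99 of 101 cells. Bcl2l1 (BCL-XL) stood at 649 against 99.1 and Pim1, a survival kinase induced by cytokines, at 1322 against 322. Of 13 genes compared 5 were higher, and Bak1, a death effector, was lower with 4 UMIs. The Bcl2a1 genes, near-identical copies among which reads are hard to divide, did not pass the ratio.

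Hypoxia and glycolysis genes were close to the macrophage level for the most part. Of 18 compared 4 were higher and 0 lower, with a median log2 ratio of 0.10 against -0.20 over all genes. Slc2a3 (GLUT3), a glucose transporter, stood at 221 against 3.96 CPM and 2.16 in cancer cells, from 18 cells. Slc2a3 reached the minimum of UMIs through the neutrophils alone, so it could only be called higher. Egln3, an oxygen sensor, stood at 691 against 162 and Ero1l, which oxidizes disulfides in the endoplasmic reticulum, at 616 against 258, with 252 and 352 in cancer cells. In the neutrophils with an S100 share of 5% or more the log2 ratios of Egln3 and Ero1l were 0.89 and 0.59, inside the ratio. Pfkfb3 stood at 293 against 142 (log2 1.04, under 1 with TMM scaling). Hif1a, Gapdh, Pkm and Ldha stood at 508, 2120.4, 981 and 784 CPM against 447, 2363, 1036 and 768, and at 260.0, 3633, 1364 and 1155 in cancer cells.

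The activin pathway, which the study manipulated in the cancer cells, was read in the neutrophils at low counts. Of 18 genes 14 were compared, 4 were higher than in macrophages and 1 lower, with a median log2 ratio of 0.71. Inhba, whose product pairs to form activin A, stood at 200.4 CPM against 14.8 in macrophages and 56.6 in cancer cells. Its 67 UMIs lay in 10 cells, with 38, 10, 7 and 6 in the highest 4, so the level describes a few neutrophils. The class held 0.734% of the library's Inhba UMIs. Fst, the knocked-out gene of the cancer cells, had 0 UMIs in neutrophils, Inhbb had 0, and mouse Fstl3 had 1.

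Receptors and transducers were sparse. Of the receptors Acvr1b, the type I activin receptor, stood at 32.9 against 15.8 CPM from 11 UMIs, Acvr2a gave 7 UMIs and Acvr2b 0. Tgfbr1 stood at 53.8 against 109.8 CPM, the lower member. Smad3, which carries activin and TGF-beta signals, stood at 59.8 against 24.7 CPM with 59.3 in cancer cells, and Tgif1, a corepressor, at 119.6 against 46.7 with 86.0. Acvr1b was under a log2 ratio of 1 with TMM scaling. When the S100 minimum was set at 5%, the log2 ratio of Tgif1 was -0.07 in place of 1.36, and that of Tgfbr1 -0.50 in place of -1.03.

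Single neutrophils differed widely. The S100a9 share ran from 0.255 to 13.8% of UMIs with a median of 2.01%, Cxcl2 from 0 to 8.78% with a median of 1.52%, and Il1b from 0 to 3.66% with a median of 0.435%. Retnlg was found in 55 of 101 cells and reached 5.58%. Ccl3 was found in 51 and Ccl4 in 22, and 21 of those 22 also had Ccl3. Cxcl2 was thus near general in the class, while Retnlg and Ccl3 each marked a part of it.

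Retnlg and Ccl3 tended to lie in different cells. Ccl3 was found in 18 of the 55 cells with Retnlg (32.7%) and in 33 of the 46 without it (71.7%). Depth was alike on both sides, with a median of 2858 UMIs with Retnlg and 2646 without, and of 2672 with Ccl3 and 2779.5 without. The Spearman correlation of their shares over the 101 cells was -0.41, and -0.26 after each cell was cut to 500 UMIs. The planned correlation, that of the circulating list with the tumor list over the neutrophils, was weaker, at -0.18, and -0.16 after the same cut. All 101 points share 1 library and the shares of a cell share 1 total, so each value is a description. Retnlg is also a gene of the rule, so a cell without it had to hold Csf3r, Cxcr2 or G0s2.

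Correlations with other genes were of moderate size at most. Wfdc17, a secreted whey acidic protein domain gene, correlated with Retnlg at 0.50 (0.44 when cut to 500 UMIs) and was found in 90.9% of cells with Retnlg and 56.5% of those without. Ccl4 correlated with Ccl3 at 0.48 (0.31) and Hilpda, a lipid droplet protein induced by hypoxia, at 0.44 (0.30). Il1r2 correlated with Ccl3 at -0.36 (-0.28). These values describe these cells only.

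**Figure D4:**
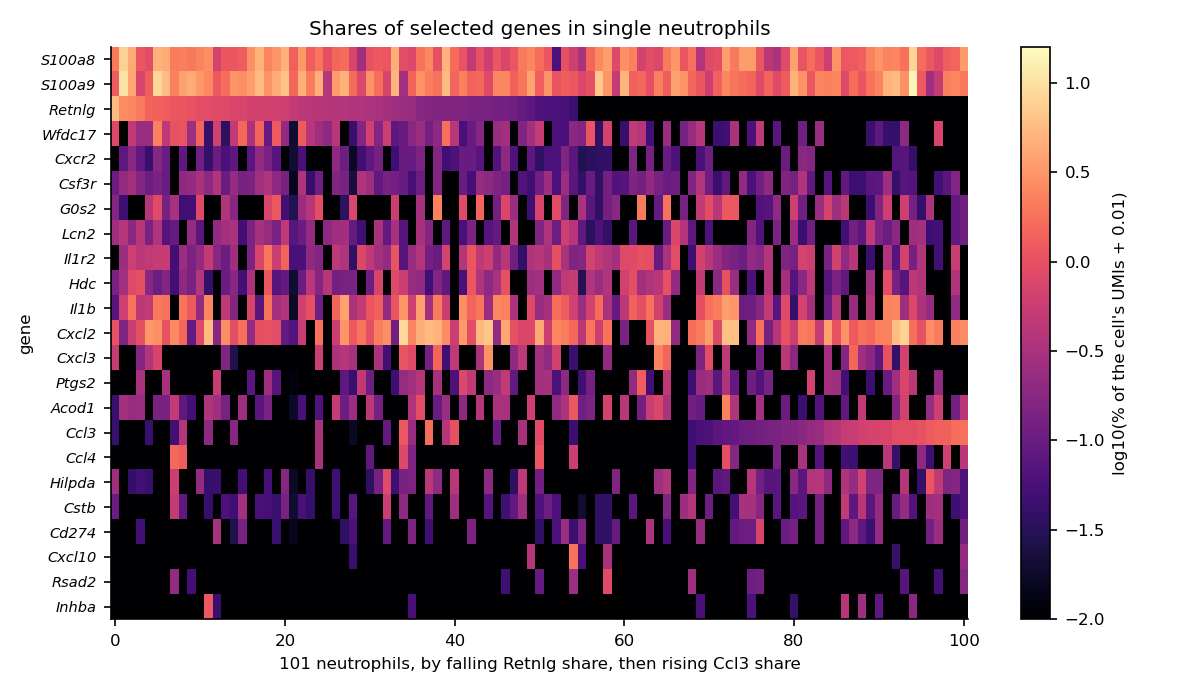
Share of UMIs of selected genes in each of the 101 neutrophils, in percent of the cell's UMIs, drawn as log10 of the percent plus 0.01, with cells in columns by falling Retnlg share and then rising Ccl3 share. Ccl3 is found in 18 of the 55 cells with Retnlg and in 33 of the 46 without it.

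**Figure D5:**
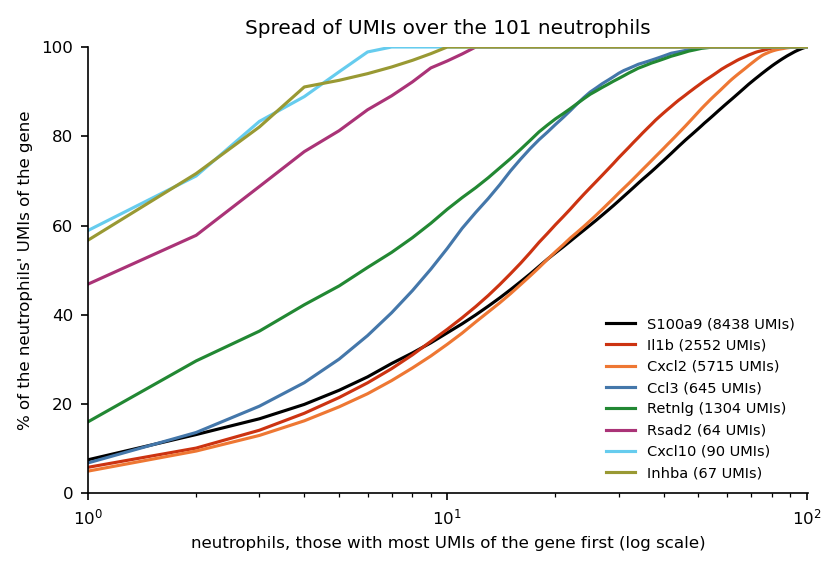
Cumulative share of the UMIs of 8 genes, in percent, over the 101 neutrophils, taken from the cell with most UMIs of that gene downward on a log axis. Inhba rests on a few cells, with 38 of its 67 UMIs in 1 cell, while Cxcl2 is found in 93 cells.

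The cells nearest in lineage were 23 with under 5 C1q UMIs, at least 10 UMIs of Lyz2 and at least 3 of Ly6c2, Ccr2, F13a1 and Plac8 together, with a median of 11355 UMIs. They are named by that rule and not as monocytes, since Ly6c2 stood at 34.3 CPM in them and Apoe, a macrophage gene, at 3381. Against them 2040 genes held 50 UMIs over both sums, and 20.5% were higher and 16.7% lower in neutrophils. Of 17 neutrophil markers 15 were higher and 0 lower, of 7 chemotactic receptors 6 were higher, and of 10 cytokine genes 8 were higher and 0 lower. Markers such as Hdc (718 UMIs against 0), Acod1 (557 against 1) and Stfa2l1 (309 against 0) reached 50 UMIs through the neutrophils alone. Such genes could only be called higher, so these counts are not read as support for the label. Il1b stood at 7632 CPM against 385 (log2 4.31), Hdc at 2147 against 0, and Csf1 at 281 against 7.62. Arg1 stood at 89.7 against 6785 CPM, Chil3 at 1681 against 6007 and Ccl2 at 35.9 against 1578.

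Of 8 chemokine ligands compared 5 were higher than in these cells and 3 lower, and of 4 class II genes 4 were lower. Cxcl2 stood at 17092 against 2401 CPM, a smaller ratio (2.83) than to macrophages. Cxcl3 stood at 1926 against 652 (1.56). Of 18 hypoxia genes 1 was higher, Slc2a3, and 1 lower, Ndrg1. Slc2a3 reached the minimum of UMIs through the neutrophils alone, so it could not have been called lower. Both comparisons use the same neutrophil sum, so their ratios are not independent.

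Cells of like profile lay under the S100 limit. With Csf3r, Cxcr2, Retnlg and G0s2 at 0.1% of UMIs or more and under 5 C1q UMIs, a limit chosen after the values were seen, KPCA.FSTKO held 38 such cells, of which 17 had no S100a8 or S100a9 UMI. Their sum of 91558 UMIs held 18 of the 20 neutrophil markers outside the rule, with Cxcl2 at 10922 CPM and Il1b at 2501 CPM. KPCA.FSTKO_hFSTL3 held 10 such cells, of which 9 had no S100 UMI, with 18529 UMIs and 8 of the 20 markers. In these 10 the fibroblast genes Dcn and Col3a1 stood at 9661 and 5559 CPM, against 1933 and 2523 CPM in the 38 cells of KPCA.FSTKO, Il1b at 432 CPM, and Hdc, Acod1, Cxcr2 and Lcn2 had 0 UMIs. Since the 4 genes of the limit chose these cells, their levels are not read, and what the 10 cells are was not tested. The count of 0 in KPCA.FSTKO_hFSTL3 is a count by the S100 rule.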

How the data were processed

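Pooled day 10 tumors of each genotype gave 1 library of 10x Genomics 3′ single-cell RNA sequencing. The deposited values are raw UMI counts per gene and barcode, made by the authors with Cell Ranger against the mm10 build. The version is 3.1.0 in the methods and in the submitters' processing notes, and 7.2.0 in the file header. The files hold 7582 barcodes for KPCA.FSTKO and 4244 for KPCA.FSTKO_hFSTL3, the cell numbers that the study states, and the study's filters (mitochondrial share under 20%, between 200 and 8000 genes) leave 6777 and 4041. The libraries share 12 barcode sequences, 10 of them among these cells, and 0 of them are neutrophils.

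Members, comparison classes and the 33 gene lists (303 genes, of which 1 symbol was not found) were chosen with earlier results of these data known, and nothing here supports an earlier result independently. Counts were summed per class and divided by the class total (CPM). Cancer cells had Krt8 and Krt18 at 0.05% of UMIs or more, 0 Ptprc UMIs, few collagen UMIs and at least 2000 UMIs. With 1 library per genotype no test was made. A gene with at least 50 UMIs over both sums was called at a CPM ratio of 2, and a count of 0 was set to a floor of 3 counts, with no ratio where that floor gave no direction. A list could name its most abundant members and those at 0 to 2 UMIs, besides the genes with the highest level and the largest and smallest ratios. Wfdc17 and the genes of the deepest barcodes were named after their values were seen. Intervals (95%) are exact Poisson, Clopper-Pearson or conditional binomial, and cover counting error only. Shares of cells were read after thinning each cell to 500 UMIs, which left out 0 cells. In simulated counts of 9687 genes with 200 changed 4-fold, for neutrophils against macrophages, the size rule recovered 100% of raised and 100% of lowered genes and called 9.00% of unchanged ones. A change of 4-fold lies well past the ratio of 2, so recovery of genes near that ratio was not tested. Promoter sequence came from RefSeq on GRCm38.p6. The authors' clustering was not repeated, and no doublet caller was run. Sums and intervals were computed in Python 3.11.15 with pandas 2.3.3, scipy 1.17.1 and numpy 2.4.6, figures were drawn with matplotlib 3.10.9, and edgeR 4.0.16 in R 4.3.3 gave TMM factors only. Some listed genes count in the totals of their lists but are not reported here by name.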

Additional observations from a re-analysis of the deposited data

How the results depend on the processing

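The neutrophil share of KPCA.FSTKO cells, 1.49% by the rule, was 1.18% with an S100a8 and S100a9 minimum of 2%, 0.487% with 5%, 1.09% with no C1q UMI allowed and 2.05% with the cells under 1% added, an alternative chosen after the data were seen. It moved by less than its counting interval under the other 4 settings. Against macrophages the count of higher genes, 1494, was 2315 at a ratio of 1.5, 492 at 4 and 731 with at least 200 UMIs, and the count of lower genes, 2195, was 3410 at 1.5 and 676 at 4. TMM scaling gave 1129 higher and 2910 lower, so that higher genes made up 28.0% of calls in place of 40.5%, and moved the median log2 ratio from -0.20 to -0.45. Against the C1q-low cells the count of higher genes, 418, was 230 with a 5% minimum, 633 at 1.5, 157 at 4, 880 with at least 20 UMIs and 100 with at least 200, and that of lower genes, 340, was 587 with the library profile subtracted, 598 at 1.5, 104 at 4, 798 with at least 20 and 87 with at least 200. Higher genes made up 55.1% of these calls and 36.7% with the 5% minimum. The cause of these shifts was not tested beyond what each limit does by construction. Without thinning the share of neutrophils with a UMI was 84.2% for Il1b, 50.5% for Ccl3, 54.5% for Retnlg and 9.90% for Inhba, and at 1000 UMIs it was 51.0% for Retnlg.

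Of 183 listed genes, 117 were past a ratio of 2 to macrophages, and over 9 settings 1201 of their log2 ratios stayed inside the counting interval, 440 moved beyond it and 1 was reversed, Tgif1 at -0.073 with the 5% minimum. In 1 setting or more 20 genes came inside the ratio. With the 5% minimum there were 10, among them Pecam1, Ccl5 (-0.13 in place of -2.02) and Cyba (-0.79 in place of -1.18). The deepest 3 barcodes were left out as a setting chosen after the data were seen. No paired analysis was possible because each genotype gave 1 library and no result comes from a test. Leaving out a replicate was not possible for the same reason. Depth limits the neutrophils most: a gene with 0 UMIs in their 334374 could stand at up to 8.97 CPM.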
